A study of Mus musculus with 4 samples.

Results

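The subject here is what differed in the RNA of mouse CD4 T cells labelled as lacking the transcription factor Foxo1. It rests on 2 of the 4 arrays of the series, chosen by their titles, 1 of Foxo1-deficient CD4 T cells (titled Foxo1KO) and 1 of wild-type CD4 T cells. Both RNAs came from T cells of the spleen and lymph nodes of 6- to 8-week-old mice, and the other 2 arrays hold CD8 T cells of the same genotypes. Not given in the sources used here are the way Foxo1 was deleted, the Cre and the cells it acts in, the strain, and the number of mice behind an array. With 1 array per genotype there is no replicate error and no test, so each difference describes that pair of arrays. In bulk RNA, fewer cells of a type and less RNA per cell cannot be told apart.

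Foxo1 is a forkhead transcription factor that is active in the nucleus of resting T cells. Signals through the antigen receptor, costimulatory receptors or cytokines activate PI3K and the kinase Akt, which phosphorylates Foxo1 and keeps it out of the nucleus. In T cells it is known for sustaining the IL-7 receptor and the lymph node homing program of naive cells, and for restraining effector and follicular helper differentiation.

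All 4 probe sets (groups of array probes that read 1 transcript) named Foxo1 in the authors' lists were lower in the cells labelled Foxo1KO. The brightest had a linear intensity of 1107 in Foxo1-deficient and 8204 in wild-type CD4 T cells. The others read 319, 215 and 61.3 in deficient cells, against 6494, 3897 and 606 in wild-type cells. Whether these probe sets lie in the deleted part of the gene is not known from the labels. Values under 74.9, the median of all non-control intensities, were set to that floor. Where 1 array was below it the fold is a bound ("at least"), and genes below it in both arrays were not compared. A bound can only point towards the array above the floor. The identity of the cells could not be checked through Cd4, Cd3e or Cd8a, since of 19 alpha beta T cell markers only 1 had a named probe set.

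Few probe sets set the CD4 arrays apart. Of 24070 probe sets measured in CD4 (at or above the floor in 1 or both arrays), 664 (2.76%) differed by 2-fold or more, with 361 (1.5%) higher and 303 (1.26%) lower in Foxo1-deficient cells. The median log2 difference (Foxo1-deficient minus wild-type) over all of them was 0.02, and 83.8% lay within 0.5 of 0. At 4-fold the counts were 41 higher and 41 lower, and at 16-fold they were 9 and 3. Dim probe sets passed 2-fold more often. When those measured in both arrays were cut into 4 equal groups by mean intensity, 3.24% of the dimmest group passed it and 1.22% of the brightest. The SD of the log2 difference was 0.44 in the dimmest group and 0.31 in the brightest.

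**Figure D1:**
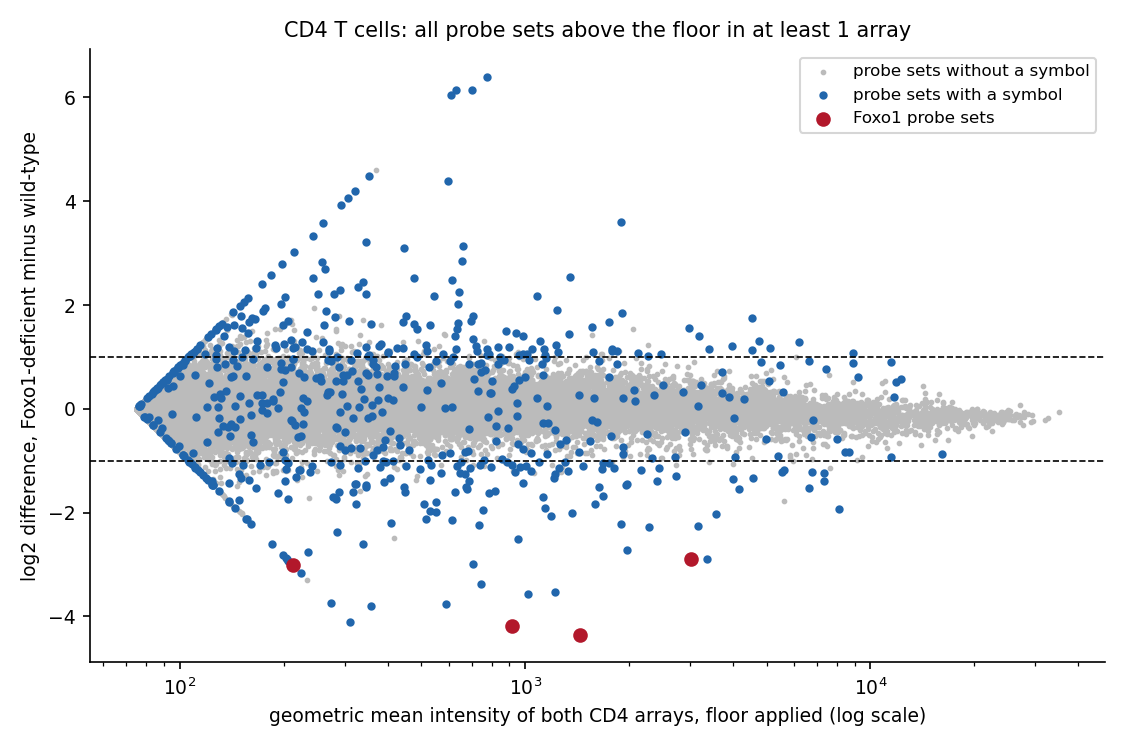
Each point is 1 probe set measured in CD4, by its geometric mean intensity (log scale) and its log2 difference, Foxo1-deficient minus wild-type. Dashed lines mark 2-fold, the slanting edges at the left are bounds, and the 4 Foxo1 probe sets lie between -4.35 and -2.89.

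Genes could be named for 660 of the 45037 probe sets, 507 genes in all, through the symbol column of the authors' lists. The authors listed 275 of these genes for a change in CD4, so their direction here is no independent evidence, and 232 for CD8 only. Of the 507 genes 477 were measured in CD4, where 132 (27.7%) were higher and 104 (21.8%) lower by 2-fold or more. Those 2 percentages are the background against which each list below is to be read, and the median log2 difference of the 477 genes was 0.32. Each gene is given by its named probe set with the highest mean in CD4. Of 94 genes with several measured named probe sets, 86 had all of them on the same side of 0. The pooled SD between named probe sets of a gene was 0.39 log2 units. Only probe sets on the authors' lists carry a symbol, so those of a gene that did not change may be missing. Agreement between named probe sets of a gene, here, for Foxo1 and below, is therefore no independent evidence.

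Among the larger gains were several genes close to the floor in wild-type cells and bright without Foxo1. Tgm2, the gene of transglutaminase 2, which crosslinks proteins, read 7103 in Foxo1-deficient and 84.6 in wild-type CD4 T cells (84.0-fold higher). Its 3 other probe sets read 5290.2, 4934 and 1377 in deficient cells, against 71.2, 69.9 and 70.2 in wild-type cells. The scavenger receptor genes 5830411N06Rik (5888 in deficient, 83.4 in wild-type cells, 70.6-fold higher) and Cd163l1 (2746 in deficient, 130.5 in wild-type cells, 21.0-fold higher) are both on the list of gamma delta and innate-like T cell genes. The third named gene of that list, the gamma delta receptor segment Trgv1, was below the floor in both arrays (29.5 in deficient, 8.97 in wild-type cells). Lgals3, which encodes the sugar-binding protein galectin-3, read 1147 in deficient and 73.5 in wild-type cells (at least 15.3-fold higher). Ggt1, a cell-surface enzyme that breaks down glutathione, read 1307 in deficient and 152 in wild-type cells (8.59-fold higher). Drc1, a subunit of the dynein regulatory complex of cilia, read 1140.3 in deficient and 198 in wild-type cells (5.76-fold higher). Gabpb2, a subunit of the GABP transcription factor, read 584 in deficient and 102 in wild-type cells (5.75-fold higher). All of these were dim in wild-type cells, unlike Ddit4 and H2-DMa, which are described with their lists and read 541 and 556 in wild-type cells.

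Some other gains also started from a clearly measured wild-type level. Mxd1, a partner of Max that opposes Myc, read 2297 in deficient and 510.2 in wild-type cells (4.50-fold higher). Bcl3, a nuclear cofactor of NF-kappaB, read 2391 in deficient and 641 in wild-type cells (3.73-fold higher). Lad1, which encodes the basement membrane protein ladinin, read 843 in deficient and 244 in wild-type cells (3.46-fold higher). Others stayed dim, such as Ddc, the decarboxylase that makes dopamine and serotonin (346 in deficient, 90.2 in wild-type cells, 3.84-fold higher), the aquaglyceroporin gene Aqp9 (297 in deficient, 88.0 in wild-type cells, 3.38-fold higher) and Ccdc102a (508 in deficient, 137 in wild-type cells, 3.70-fold higher). Among bounds, the calcium channel subunit gene Cacnb3 read 399 in deficient and 16.1 in wild-type cells (at least 5.32-fold higher). The cell adhesion gene Chl1 read 313 in deficient and 68.7 in wild-type cells (at least 4.17-fold higher), D630039A03Rik 330.1 in deficient and 63.8 in wild-type cells (at least 4.41-fold higher), and Pafah1b1, a regulator of dynein, 234 in deficient and 49.3 in wild-type cells (at least 3.12-fold higher).

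The largest losses were mostly of genes bright in wild-type cells. Klrd1, which encodes the CD94 chain of NK-type receptors, read 95.8 in Foxo1-deficient and 1327 in wild-type CD4 T cells (13.8-fold lower). H2-Ob, a subunit of the antigen-loading modulator H2-O, read 159.6 in deficient and 2165 in wild-type cells (13.6-fold lower), and Gm8369 295 in deficient and 3509.8 in wild-type cells (11.9-fold lower). App, the amyloid precursor gene, read 250.3 in deficient and 1989 in wild-type cells (7.95-fold lower). Its other probe sets read 80.6 and 7.44 in deficient cells, against 273 and 93.3 in wild-type cells. Cd55, the complement regulator decay-accelerating factor, had 3 probe sets at 54.3, 37.6 and 31.2 in deficient cells, against 1286, 1006 and 527 in wild-type cells. All 3 Cd55 values of the deficient array were below the floor, and the brightest probe set was at least 17.2-fold lower. Tent5c, which encodes a poly(A) polymerase, read 1452 in deficient and 6936 in wild-type cells (4.78-fold lower).

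Losses of about 3- to 4-fold included enzymes, transporters and adaptors. Neurl3, a ubiquitin ligase gene, read 269 in deficient and 1045 in wild-type cells (3.89-fold lower). Arsb, a lysosomal sulfatase gene, read 589 in deficient and 2221 in wild-type cells (3.77-fold lower). Nck2, an adaptor that links receptors to actin, read 270.0 in deficient and 963 in wild-type cells (3.57-fold lower). The efflux pump gene Abcg2 read 296 in deficient and 1023 in wild-type cells (3.45-fold lower), and Ank, a pyrophosphate transport gene, 360.2 in deficient and 1088 in wild-type cells (3.02-fold lower). The mitochondrial dehydrogenase gene Gpd2 read 472 in deficient and 1410.2 in wild-type cells (2.99-fold lower). The less known genes BC023892 (4.43-fold lower), Btbd11 (4.01-fold lower), Tdrp (3.56-fold lower), A530021J07Rik (2.93-fold lower) and Fbxo17 (2.87-fold lower) were in the same range. Among bounds, 1110059G02Rik read 35.6 in deficient and 556 in wild-type cells (at least 7.42-fold lower) and Sntb1, a scaffold of the dystrophin complex, 3.12 in deficient and 325 in wild-type cells (at least 4.35-fold lower). Wwox was at least 4.33-fold lower, Adamtsl4 at least 3.74-fold lower, Prg4, a lubricating proteoglycan gene, at least 3.45-fold lower and Bambi-ps1 at least 3.01-fold lower, each from under the floor in deficient cells.

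**Figure D2:**
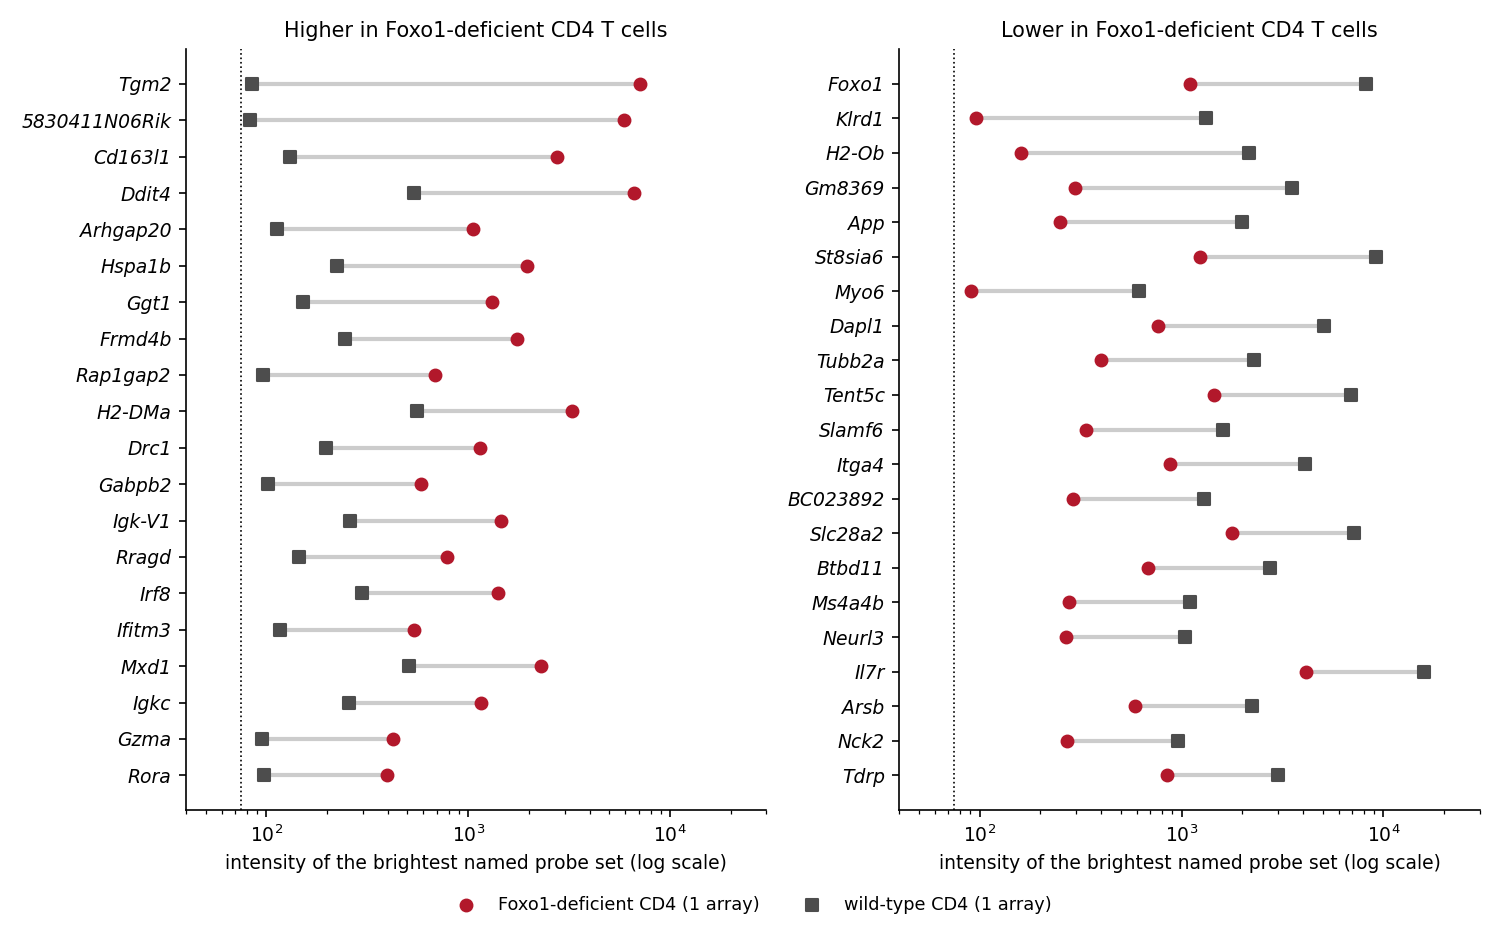
Intensity (log scale) in the Foxo1-deficient (circles) and wild-type (squares) CD4 arrays of the 20 named genes with the largest difference each way among those above the floor (dotted line) in both, with Foxo1 added. Among the higher genes the wild-type squares lie between 83.4 and 556, and among the lower genes most wild-type squares lie above 1000.

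Genes reported as FOXO targets were found on both sides. Of 45 listed, 10 were named and 9 measured, with 5 higher and 3 lower by 2-fold or more. The median log2 difference was 1.02, against 0.32 for all named genes. That median is the value of Foxp3, a bound that could only point upwards and is counted among the 5. Il7r, the IL-7 receptor alpha chain on which naive T cell survival depends, read 4148 in Foxo1-deficient and 15808 in wild-type CD4 T cells (3.81-fold lower). Its other probe set read 1035 in deficient and 5016 in wild-type cells. Sesn1, a stress-induced inhibitor of mTOR signalling, read 3920.3 in deficient and 11301 in wild-type cells (2.88-fold lower), and its 4 probe sets had log2 differences of -1.69 to -1.19. Klf3, a zinc finger repressor, read 366 in deficient and 780.0 in wild-type cells (2.13-fold lower). On the other side, Ddit4, also an inhibitor of mTOR signalling, read 6595 in Foxo1-deficient and 541 in wild-type CD4 T cells (12.2-fold higher). Bcl2l11, which encodes the death-promoting protein Bim, read 252 in deficient and 81.9 in wild-type cells (3.08-fold higher), from 1 named probe set. Bcl6, the repressor that directs follicular helper cells, read 1828 in deficient and 852 in wild-type cells (2.15-fold higher). Socs3, an inhibitor of cytokine signalling, read 12959 in deficient and 6135 in wild-type cells (2.11-fold higher). Foxp3, the regulatory T cell factor, read 152 in deficient and 47.7 in wild-type cells (at least 2.03-fold higher), and Eomes, a T-box factor of memory cells, was 1.57-fold higher. The death gene Pmaip1 was below the floor in both arrays.

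To show where a Foxo1 site could lie, the core forkhead motif GTAAACA was searched on both strands of RefSeq promoters (assembly GRCm38.p6), from 250 bases before to 50 after each gene start. A promoter was available for 99 of the 132 named genes higher by 2-fold or more and for 76 of the 104 lower. The motif was found for 4 of the 99 (4.04%), for 2 of the 76 (2.63%) and for 1095 of all 27025 genes with a promoter (4.05%). The share among the genes that differed was thus no greater than among all genes. A match is a match of letters, not a binding site. Both promoters of lower genes, and those of the 3 higher genes measured in both arrays, are shown to 30 bases after the start, 5′ to 3′ on the gene's strand (plus for all 5). The motif, or its reverse complement TGTTTAC, is in capitals. They lie at chr2:59484403-59484682 (Dapl1), chr10:41810324-41810603 (Sesn1), chr2:128125788-128126067 (Bcl2l11), chr4:134923375-134923654 (Rsrp1) and chr3:142559794-142560073 (Gbp3). The motif begins 164 bases before the start of Dapl1, 227 before Bcl2l11, 230 before Rsrp1 and 239 before Gbp3, and 22 bases after the start of Sesn1. Rsrp1, of the arginine/serine-rich proteins, read 926 in deficient and 303 in wild-type cells (3.05-fold higher), and values of the others stand beside their lists.
Dapl1: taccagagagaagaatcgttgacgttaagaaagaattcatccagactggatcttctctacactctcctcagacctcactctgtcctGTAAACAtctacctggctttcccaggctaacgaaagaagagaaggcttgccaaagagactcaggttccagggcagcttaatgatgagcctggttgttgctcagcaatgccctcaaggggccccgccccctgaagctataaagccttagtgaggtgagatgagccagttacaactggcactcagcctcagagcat
Sesn1: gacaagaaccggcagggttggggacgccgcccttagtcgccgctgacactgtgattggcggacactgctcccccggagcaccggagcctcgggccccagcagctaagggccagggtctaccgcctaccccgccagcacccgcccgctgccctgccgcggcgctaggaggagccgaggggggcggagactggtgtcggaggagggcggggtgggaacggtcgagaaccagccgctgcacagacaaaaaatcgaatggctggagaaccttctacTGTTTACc
Bcl2l11: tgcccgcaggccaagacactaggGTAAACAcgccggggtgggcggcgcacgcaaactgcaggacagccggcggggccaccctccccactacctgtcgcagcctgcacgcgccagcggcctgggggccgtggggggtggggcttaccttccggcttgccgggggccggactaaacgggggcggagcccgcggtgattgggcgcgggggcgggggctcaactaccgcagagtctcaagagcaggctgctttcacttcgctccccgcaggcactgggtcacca
Rsrp1: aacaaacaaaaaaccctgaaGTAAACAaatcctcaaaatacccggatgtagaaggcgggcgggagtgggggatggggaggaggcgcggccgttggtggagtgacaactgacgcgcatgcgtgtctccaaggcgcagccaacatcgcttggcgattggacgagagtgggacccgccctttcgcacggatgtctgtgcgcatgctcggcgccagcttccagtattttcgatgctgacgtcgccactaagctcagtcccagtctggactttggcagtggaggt
Gbp3: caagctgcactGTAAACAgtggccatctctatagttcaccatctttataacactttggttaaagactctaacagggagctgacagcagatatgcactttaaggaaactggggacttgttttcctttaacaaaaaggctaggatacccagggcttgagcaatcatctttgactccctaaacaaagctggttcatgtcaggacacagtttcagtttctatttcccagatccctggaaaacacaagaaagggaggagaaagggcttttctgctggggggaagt

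Of 46 genes of the PI3K, Akt and mTOR pathway 8 were named, 2 higher and 4 lower by 2-fold or more, Foxo1, Sesn1 and Ddit4 among them. Inpp4b, a lipid phosphatase that also limits Akt signalling, read 3634 in deficient and 8468 in wild-type cells (2.33-fold lower). Inhibitors of the pathway thus stood on both sides, with Ddit4 higher and Inpp4b and Sesn1 lower. The insulin-like growth factor receptor gene Igf1r read 277 in deficient and 565 in wild-type cells (2.04-fold lower). Trib2, a pseudokinase, was 1.45-fold lower, and the PI3K catalytic gene Pik3cd read 623 in deficient and 607 in wild-type cells, a difference whose sign turned under quantile normalization. Rragd, which encodes a Rag GTPase of amino acid sensing and is not on the list, read 788 in deficient and 146 in wild-type cells (5.41-fold higher).

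Genes of naive and quiescent T cells were lower or near equal. Of 28 listed 10 were named, 5 were lower by 2-fold or more and none higher, and the median log2 difference was -0.85. Dapl1, a gene of naive T cells of unclear role, read 767 in Foxo1-deficient and 5080.1 in wild-type CD4 T cells (6.63-fold lower). Ms4a4b, a T cell membrane protein, read 277 in deficient and 1104 in wild-type cells (3.98-fold lower). Actn1, an actin crosslinker gene, read 4542 in deficient and 11902 in wild-type cells (2.62-fold lower). Tob1, which restrains T cell proliferation, read 688 in deficient and 1469 in wild-type cells (2.14-fold lower), and Klf3 was the fifth. The other 5 were all named through the authors' CD8 list. Of these, the integrin gene Itga6 was 1.52-fold lower and Ly6c1 1.16-fold lower, while the IL-6 receptor genes Il6ra (1.16-fold higher) and Il6st (1.20-fold higher) and Igfbp4 (1.18-fold higher) were slightly higher.

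Of 40 cytokine receptor and signal genes 12 were named, 1 higher (Socs3) and 2 lower by 2-fold or more, with a median log2 difference of 0.27. Beside Il7r, the lower one was Stat4, the signal transducer of IL-12, which read 1192 in deficient and 3254 in wild-type cells (2.73-fold lower). The feedback inhibitor genes Cish (1614 in deficient, 819.8 in wild-type cells, 1.97-fold higher) and Socs1 (756 in deficient, 401 in wild-type cells, 1.89-fold higher) were higher but under 2-fold. The receptor chains Il18rap (1.35-fold higher), Il12rb1 (1.17-fold higher) and Ifngr2 (1.14-fold higher) lay within the 0.5 log2 units that hold most probe sets.

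Receptors of migration stood on both sides, 4 of 10 measured genes higher and 2 lower by 2-fold or more (36 listed, 11 named, median log2 difference 0.20). Ccr9, the gut homing receptor, read 1568 in deficient and 567 in wild-type cells (2.77-fold higher). Cxcr5, the receptor for B cell follicles, read 324 in deficient and 143 in wild-type cells (2.27-fold higher), and Cxcr3, the receptor for inflamed tissue, 319 in deficient and 141 in wild-type cells (2.27-fold higher). Cxcr4, a receptor for bone marrow and thymic stroma, read 583 in deficient and 276 in wild-type cells (2.11-fold higher). On the lower side, Itga4, the integrin chain of VLA-4, read 876 in Foxo1-deficient and 4094 in wild-type CD4 T cells (4.67-fold lower), and its 4 probe sets had log2 differences of -2.60 to -1.11. F2rl1, a protease-activated receptor, read 446 in deficient and 1379.8 in wild-type cells (3.09-fold lower). The adhesion gene Icam1 was 1.48-fold higher, Cd44 1.28-fold lower and the oxysterol receptor gene Gpr183 1.12-fold lower. The other Gpr183 probe set was 1.11-fold higher. The lymph node homing genes Ccr7, Klf2 and S1pr1 have no named probe set and were not analysed here.

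Of 35 genes of T cell activation and memory 18 were named and 17 measured, with 6 higher and 1 (Itga4) lower by 2-fold or more and a median log2 difference of 0.75. Lgals1, which encodes galectin-1, was the brightest of the 6 at 9688 in deficient and 3958 in wild-type cells (2.45-fold higher). Tnfrsf9, the costimulatory receptor 4-1BB, read 1311 in deficient and 379 in wild-type cells (3.46-fold higher). The giant scaffold gene Ahnak read 629 in deficient and 203 in wild-type cells (3.10-fold higher) and Cd83 211 in deficient and 91.9 in wild-type cells (2.29-fold higher). Under 2-fold were Cd24a (1.94-fold higher), Tnfrsf4, which encodes OX40 (1.68-fold higher), Cd38 (1.54-fold higher) and Ly6a (1.48-fold higher). The calcium-binding genes S100a4 (130.0 in deficient, 30.3 in wild-type cells, at least 1.74-fold higher) and S100a6 (123 in deficient, 56.8 in wild-type cells, at least 1.65-fold higher) were near the floor. Id2, a regulator of effector cells, was lower at 1968 in deficient and 3742 in wild-type cells (1.90-fold lower), and Hopx was 1.12-fold lower. Another Hopx probe set was 1.08-fold higher.

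All 7 measured genes of those that T cell receptor signals induce were higher, 4 of them by 2-fold or more (34 listed, 9 named, median log2 difference 1.20). Map3k8, a kinase that feeds the ERK pathway, read 449 in deficient and 68.1 in wild-type cells (at least 5.99-fold higher). This bound could only point upwards. Rgs1, a brake on chemokine receptor signalling, read 554 in deficient and 172 in wild-type cells (3.23-fold higher). The nuclear receptor genes Nr4a1 (2245 in deficient, 1189.8 in wild-type cells, 1.89-fold higher) and Nr4a3 (1191 in deficient, 598 in wild-type cells, 1.99-fold higher) were just under 2-fold. Nfkbia, the inhibitor that NF-kappaB induces, read 7316 in deficient and 4080.1 in wild-type cells (1.79-fold higher), and Cd83 and Irf8 complete the 7. Jun and Nr4a2 were below the floor in both arrays.

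Cytotoxic genes were higher although dim. Of 20 listed 6 were named, 5 of them higher by 2-fold or more, with a median log2 difference of 1.54. Gzma, which encodes the killing protease granzyme A, read 424 in deficient and 95.6 in wild-type cells (4.44-fold higher), and Gzmb 204 in deficient and 11.1 in wild-type cells (at least 2.72-fold higher). The chemokine gene Ccl5 read 296 in deficient and 27.3 in wild-type cells (at least 3.96-fold higher), and the granule gene Nkg7 195 in deficient and 64.1 in wild-type cells (at least 2.61-fold higher). Cst7, a protease inhibitor of cytotoxic cells, read 837 in deficient and 270.2 in wild-type cells (3.10-fold higher). Serpina3g was at least 1.80-fold higher. All but Gzma and Cst7 were below the floor in the wild-type array, so their folds are bounds and could only point upwards. The count and the median above rest largely on these bounds. Ccl5 and Xcl1 (78.9 in deficient, 11.5 in wild-type cells, at least 1.05-fold higher) were the only named helper cytokine and chemokine genes of 25. Of 27 NK-type receptor genes 5 were named and 3 measured, with Klrd1 and the Fc receptor gene Fcgr3 (29.1 in deficient, 189 in wild-type cells, at least 2.52-fold lower) lower by 2-fold or more and Cd160 1.19-fold higher. Klra9 and Klrc1 were below the floor in both arrays.

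Lineage factors of helper T cells were mostly higher, 5 of 10 named genes (27 listed) by 2-fold or more and none lower by as much, with a median log2 difference of 0.95. Irf8, an interferon-regulated factor, read 1405 in Foxo1-deficient and 296 in wild-type CD4 T cells (4.74-fold higher), and its other probe set had a log2 difference of 0.96. Ikzf2, which encodes Helios, read 1292 in deficient and 318 in wild-type cells (4.07-fold higher). Rora, a nuclear receptor of Th17 and innate lymphoid cells, read 397 in deficient and 97.4 in wild-type cells (4.08-fold higher), and its 4 probe sets had log2 differences of 0.52 to 2.03. Bcl6 and Foxp3 were the other 2. The aryl hydrocarbon receptor gene Ahr was 1.84-fold higher (265 in deficient, 144 in wild-type cells). Tbx21, which encodes T-bet, was below the floor in wild-type cells and has only a bound (109.7 in deficient, 8.65 in wild-type cells, at least 1.47-fold higher). Maf was 1.17-fold lower.

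Of 25 genes linked to regulatory T cells 9 were named, 6 higher and 1 lower by 2-fold or more (median log2 difference 1.04). The 6 were Ikzf2, Tnfrsf9, Rgs1, Cst7, Foxp3 and Swap70, a gene for a guanine nucleotide exchange factor (155 in deficient, 42.6 in wild-type cells, at least 2.06-fold higher). Nrp1, a receptor on thymus-derived regulatory cells, was the lower one at 59.3 in deficient and 347 in wild-type cells (at least 4.63-fold lower). Plagl1, a zinc finger gene, was at least 1.63-fold higher. Foxp3, Swap70 and Plagl1 were under the floor in wild-type cells and could only come out higher. Nrp1 was under it in deficient cells and could only come out lower. The median is the bound of Swap70, and the counts rest in part on these bounds.

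Follicular helper genes stood on both sides, 3 of 7 higher and 1 lower by 2-fold or more (20 listed, median log2 difference -0.23). Cxcr5, Bcl6 and Pdcd1, which encodes the inhibitory receptor PD-1 (403 in deficient, 181 in wild-type cells, 2.23-fold higher), were higher. Slamf6, a homotypic receptor that signals through the adaptor SAP, read 338 in Foxo1-deficient and 1599 in wild-type CD4 T cells (4.73-fold lower). Sh2d1a, which encodes SAP, read 853 in deficient and 1559.9 in wild-type cells (1.83-fold lower). Among 8 named costimulatory and inhibitory receptors (30 listed, median log2 difference 0.05), Tnfrsf9 and Pdcd1 were higher and Slamf6 lower by 2-fold or more. The costimulatory genes Icos (1.25-fold lower) and Cd28 (log2 difference -0.59) were lower by less, and Slamf7 was 1.11-fold lower.

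All 14 named interferon response genes (51 listed) were higher, with a median log2 difference of 0.91, against 0.32 for all named genes. By 2-fold or more 5 of the 14 were higher, a share not far from the 27.7% of all measured named genes. Iigp1, an interferon-inducible GTPase that attacks parasite vacuoles, read 8311 in Foxo1-deficient and 2485 in wild-type CD4 T cells (3.34-fold higher). The related GTPase genes Gbp6 (6041 in deficient, 2609 in wild-type cells, 2.32-fold higher), Irgm2 (6679 in deficient, 3063 in wild-type cells, 2.18-fold higher) and Gbp3 (1137 in deficient, 546 in wild-type cells, 2.08-fold higher) also passed 2-fold, as did Irf8. The other 9 lay between 1.21-fold and 1.92-fold. Among them, Rsad2, which encodes the antiviral enzyme viperin, read 372 in deficient and 194 in wild-type cells (1.92-fold higher), Gbp2 9119 in deficient and 4824 in wild-type cells (1.89-fold higher) and Irf1 9684 in deficient and 5693 in wild-type cells (1.70-fold higher). Usp18, which dampens interferon signalling, was 1.83-fold higher. Of the 14 genes, 9 were named through the authors' CD8 list only. Ifitm3, a membrane protein that blocks virus entry, read 542 in deficient and 117 in wild-type cells (4.65-fold higher).

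**Figure D3:**
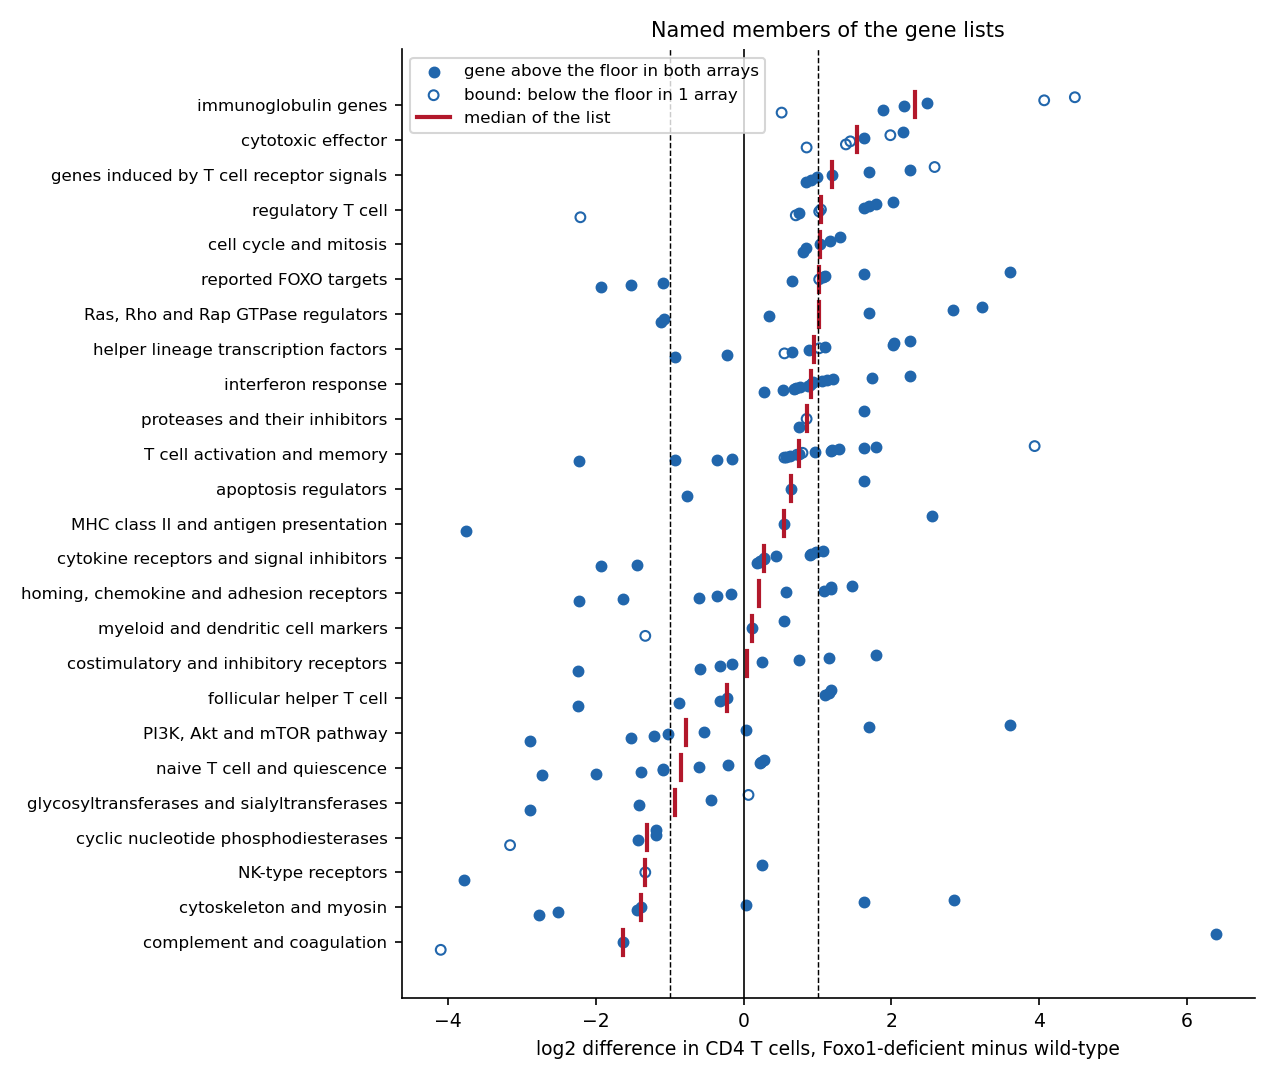
Each point is a named gene of a list with at least 3 measured genes, by its log2 difference in CD4 T cells, Foxo1-deficient minus wild-type. Open points are bounds, red bars are list medians and dashed lines mark 2-fold. All points of the interferon, cytotoxic, cell cycle and immunoglobulin lists lie right of 0, and all 4 phosphodiesterases lie left of -1. The open points of the cytotoxic and immunoglobulin lists could only lie right of 0, and that of the phosphodiesterases only left of it.

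Of 49 cell cycle genes 5 were named, all higher and 3 of them by 2-fold or more. Nusap1, a spindle protein gene, read 262 in deficient and 106 in wild-type cells (2.46-fold higher). Mki67, which marks dividing cells, read 664 in deficient and 295 in wild-type cells (2.25-fold higher), and Rrm2, which makes deoxynucleotides, 500.2 in deficient and 246 in wild-type cells (2.04-fold higher). Cdc6 was 1.80-fold higher and Ccna2 1.74-fold higher. Cdc25b, a phosphatase that activates mitotic kinases and was not on the list, was lower at 172 in deficient and 611 in wild-type cells (3.55-fold lower). Of 36 apoptosis genes 5 were named and 3 measured. Beside Bcl2l11, the BH3-only gene Bmf read 521 in deficient and 334 in wild-type cells (1.56-fold higher), and Cflar, an inhibitor of caspase-8, 239.8 in deficient and 407 in wild-type cells (1.70-fold lower). Of 34 heat shock and unfolded protein genes 2 were named, both higher. Hspa1b, the inducible Hsp70, read 1962 in Foxo1-deficient and 223 in wild-type CD4 T cells (8.78-fold higher), with log2 differences of 2.80 to 3.32 over 3 probe sets. Hspa8, the constitutive Hsp70, read 404 in deficient and 201 in wild-type cells (2.01-fold higher).

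All 4 named cyclic nucleotide phosphodiesterases (19 listed), which break down cAMP or cGMP, were lower by 2-fold or more, with a median log2 difference of -1.31. Pde5a, specific for cGMP, read 68.1 in deficient and 671 in wild-type cells (at least 8.96-fold lower). Pde7a, specific for cAMP, read 601 in deficient and 1618 in wild-type cells (2.69-fold lower). Pde4b, also specific for cAMP, read 882 in deficient and 2014 in wild-type cells (2.29-fold lower), and Pde2a, which cleaves both, 1433 in deficient and 3259 in wild-type cells (2.27-fold lower). The authors had listed all 4 for a change in CD4.

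Cytoskeletal genes and GTPase regulators held large differences each way. Of 60 cytoskeletal genes 7 were measured, 2 higher and 4 lower by 2-fold or more. Myo6, a myosin that walks towards the minus end of actin, read 90.4 in deficient and 614 in wild-type cells (6.80-fold lower). The beta tubulin gene Tubb2a read 400.2 in deficient and 2285 in wild-type cells (5.71-fold lower), from a probe set shared between transcripts, and its close paralog Tubb2b 197 in deficient and 534 in wild-type cells (2.72-fold lower). Frmd4b, a FERM domain scaffold, was higher at 1751 in deficient and 245 in wild-type cells (7.16-fold higher). Of 66 GTPase regulators 6 were named, 3 higher and 2 lower by 2-fold or more. Arhgap20, which encodes a GTPase-activating protein, read 1056 in deficient and 113 in wild-type cells (9.31-fold higher). Rap1gap2, which inactivates Rap1, read 688 in deficient and 96.8 in wild-type cells (7.11-fold higher). Arhgap29 was 2.16-fold lower, and Rapgef4, an exchange factor that cAMP activates, 2.12-fold lower.

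Of 57 glycosyltransferase genes 4 were named, and the 2 that differed by 2-fold or more were sialyltransferases, both lower. St8sia6 read 1238 in Foxo1-deficient and 9178 in wild-type CD4 T cells (7.41-fold lower). Its other probe sets read 359 and 231 in deficient cells, against 4158 and 2396 in wild-type cells. St3gal6 read 239 in deficient and 637 in wild-type cells (2.67-fold lower), and St8sia1 was 1.35-fold lower. Among 4 named solute carriers, Slc28a2, a nucleoside transporter, read 1773 in deficient and 7176 in wild-type cells (4.05-fold lower). The bicarbonate transporter gene Slc4a7 read 627 in deficient and 2028 in wild-type cells (3.23-fold lower), and the peptide transporter gene Slc15a2 3214 in deficient and 1596 in wild-type cells (2.01-fold higher). Beside Ggt1, the named glutathione gene of 42 was the transferase Gstt2, lower at 255 in deficient and 643 in wild-type cells (2.52-fold lower). Of the 33 complement and coagulation genes, Tgm2 was higher and Cd55 and F2rl1 lower. Of 44 proteases and inhibitors, Ctsa was 1.68-fold higher beside Cst7 and Serpina3g. No glycolysis gene of 23 and no Rab gene was named. Symbol families added Dusp10 (2.82-fold higher), a phosphatase of stress kinases, Trim59 (1.61-fold lower), and Zfp689 (1.83-fold higher). The 4 named Tmem genes were within 2-fold.

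Genes of other blood cells were among those that differed. Of 19 immunoglobulin genes 6 were named and all were higher, 5 by 2-fold or more, and their summed intensity was 5978 in Foxo1-deficient and 776 in wild-type CD4 T cells. Igkc, the kappa constant region, read 1157 in deficient and 257 in wild-type cells (4.50-fold higher), and Jchain, which joins IgM and IgA, 335 in deficient and 91.0 in wild-type cells (3.68-fold higher). Igk-V1 read 1451 in deficient and 261 in wild-type cells (5.56-fold higher). Igh (1255 in deficient, 62.9 in wild-type cells, at least 16.8-fold higher) and Igh-VJ558 (1674 in deficient, 47.3 in wild-type cells, at least 22.3-fold higher) were under the floor in wild-type cells, as was Ighm (at least 1.43-fold higher). These bounds could only point upwards. The other Igh-VJ558 probe set was above the floor in both arrays (745 in deficient, 161 in wild-type cells, 4.63-fold higher). Of 28 B cell markers only Cd72 was named (941 in deficient, 421 in wild-type cells, 2.23-fold higher). The defining markers Cd79a and Ms4a1 have no named probe set, and the part of B cells in these values was not tested.

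Of 26 genes of MHC class II presentation 3 were named. H2-DMa, which helps load peptides, was higher at 3251 in deficient and 556 in wild-type cells (5.85-fold higher). H2-Aa, a class II chain, read 1159 in deficient and 791 in wild-type cells (1.47-fold higher), while H2-Ob was among the largest losses. The 3 named myeloid markers of 37 summed to 536 in deficient and 576 in wild-type cells, with the lysozyme genes Lyz2 1.08-fold higher and Lyz1 1.45-fold higher and Fcgr3 lower. Of 20 erythroid and platelet genes, the globin gene Hba-a1 (68.6 in deficient, 152 in wild-type cells, at least 2.03-fold lower) and the carbonic anhydrase gene Car2 (70.2 in deficient, 257 in wild-type cells, at least 3.43-fold lower) were lower. Both are bounds from under the floor in deficient cells and could only point downwards. The part of other blood cells in the differences was not tested.

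Near the 2-fold threshold the margins were small. Just inside it were Hspa8, Slc15a2 and Rrm2 on the higher side (log2 differences of 1.01, 1.01 and 1.03), and Dnajc15 and Klhl5 on the lower side (each -1.02). Just outside on the higher side were BC028454 (685 in deficient, 343 in wild-type cells), Rrad (873 and 438) and Nr4a3. On the lower side they were Dntt (274 in deficient, 547 in wild-type cells), Lgmn (log2 difference -0.98) and Wdr12 (-0.98). The spread between probe sets of 1 gene is larger than these margins. Of probe sets with no symbol that were measured in both arrays, the furthest had log2 differences of 1.93 and -2.49.

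The larger a CD4 difference, the more often CD8 T cells shared it. The CD8 comparison uses 2 other arrays, and there 836 of 23803 measured probe sets (3.51%) differed by 2-fold or more, 1.47% higher and 2.04% lower. Counting only probe sets measured in both cell types, of 39 higher by 4-fold or more in CD4, 35 were higher by 2-fold or more in CD8, and of 37 lower by 4-fold or more, 32 were lower there. Of 308 that were higher by 2- to 4-fold, 70 did the same in CD8, and of 245 that were lower by 2- to 4-fold, 72 did. The median CD8 log2 difference was 2.02 and 0.43 for the 2 higher classes, and -2.04 and -0.69 for the 2 lower ones.

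Genes that the authors listed for CD8 alone show the same comparison without selection for a CD4 change, although the genes with larger CD4 changes are missing from them. Of 69 such genes that were higher by 2-fold or more in CD8 and measured in CD4, 59 were above 0 in CD4. Their median CD4 log2 difference was 0.53, and 10 reached 2-fold. Of 83 such genes that were lower by 2-fold or more in CD8, 50 were below 0 in CD4, with a median of -0.18. In CD4 5 of these were lower and 4 higher by 2-fold or more.

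Some large CD4 differences were not seen in CD8, although with 1 array each the difference between the cell types was not tested. Ddit4, 12.2-fold higher in CD4, read 2555 in Foxo1-deficient and 4040.3 in wild-type CD8 T cells. Bcl2l11 had a log2 difference of 1.62 in CD4 and -0.33 in CD8. Myo6 and Pde5a, bright in wild-type CD4 T cells, read 64.5 and 19.7 in deficient and 76.1 and 60.3 in wild-type CD8 T cells. Both were near or under the floor in wild-type CD8 T cells, so a loss could hardly show there. The reverse held for some genes. The cytotoxic gene Gzma (2.15 in CD4, 4.42 in CD8) and Cd38 (0.62, 2.56), measured in all 4 arrays, were higher by a smaller amount in CD4. For Gzmb and Tbx21 the CD4 difference is only a bound, so its size cannot be set against CD8, where Gzmb read 1079.9 in deficient and 45.8 in wild-type and Tbx21 1295 in deficient and 165 in wild-type cells. The amino acid transporter gene Slc6a19 (-0.37 in CD4, -4.12 in CD8), Gpcpd1 (-0.13, -3.41) and Il6ra (0.22, -2.31) were lower by more than 4-fold in CD8 and within 2-fold in CD4. For Slc6a19 the CD8 value is a bound. It read 101 in wild-type CD4 T cells, too near the floor for a 2-fold loss to show there. Cryl1 read 143 in deficient and 73.5 in wild-type CD4 T cells, and 38.8 in deficient and 1081 in wild-type CD8 T cells. Cxcl10, an interferon-induced chemokine, had log2 differences of -0.22 in CD4 and 1.81 in CD8, and Ppp2ca, a phosphatase subunit gene, -0.44 and 1.55.

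**Figure D4:**
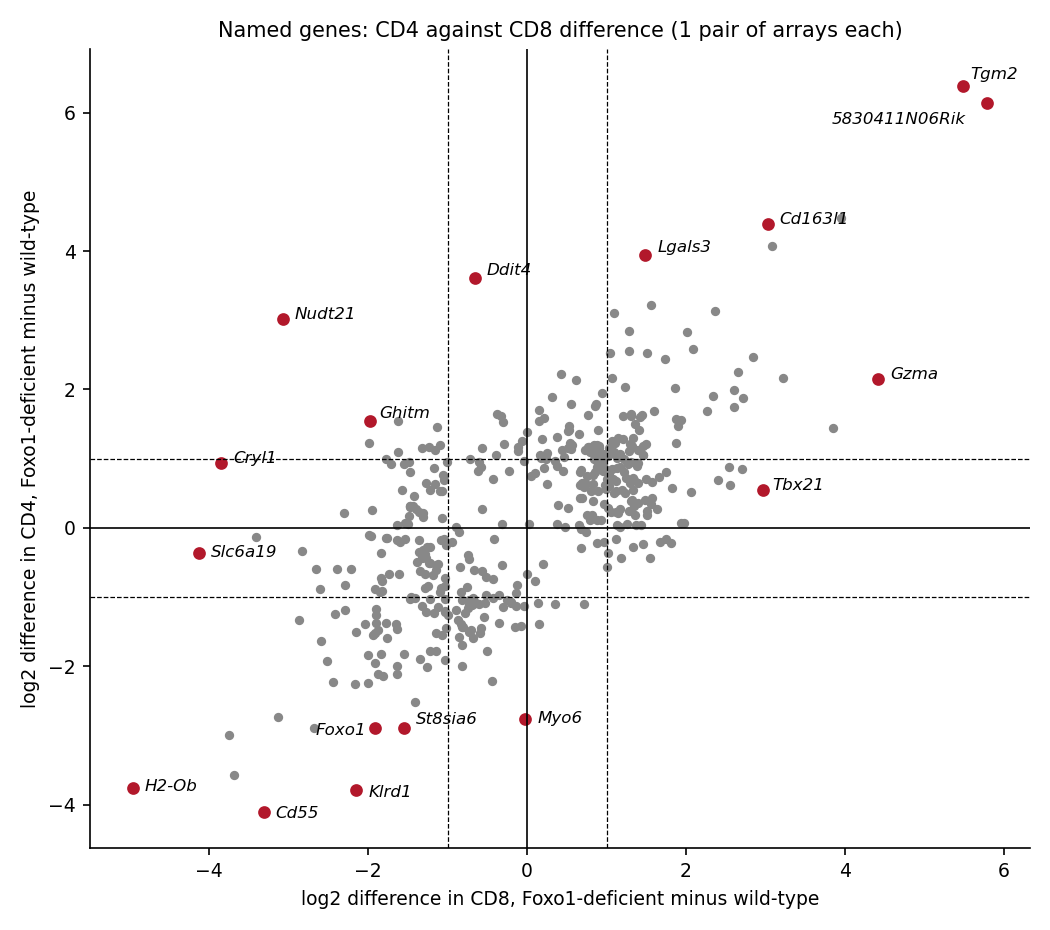
Each point is a named gene measured in both cell types, by its log2 difference (Foxo1-deficient minus wild-type) in CD8 (horizontal) and CD4 T cells (vertical), 1 pair of arrays each, with bounds included. Tgm2 and 5830411N06Rik lie far up in both, while Nudt21 (3.02 in CD4, a bound, and -3.08 in CD8) and Ddit4 (3.61, -0.66) lie at the upper left.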

How the data were processed

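RNA of 4 T cell samples was hybridised to Affymetrix arrays from 0.5 ug of total RNA, per the labels' protocols. The authors deposited a table with 1 linear intensity per probe set and array, and its summarisation, background correction and scaling are not given in the sources used. Of 45101 probe sets 64 controls were left out. Symbols came from the symbol column of the authors' deposited fold change lists (694 probe sets, 33 without a symbol and 1 turned into a date). Of these symbols 563 were current in RefSeq (GRCm38.p6), 56 were updated through a synonym and 41 kept as given. Array medians were 75.7 (Foxo1-deficient CD4) and 77.6 (wild-type CD4). The 9 hybridisation controls had a median log2 difference of -0.23, and the 5 prime minus 3 prime log2 signal differed by -0.28 (actin) and 0.24 (Gapdh).

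No scaling and no pseudocount were applied, and log2 differences are Foxo1-deficient minus wild-type after the floor. The rule named Foxo1, the 30 largest differences each way among genes measured in both CD4 arrays, the 10 largest bounds each way, up to 8 members of each of 33 lists and 8 symbol families, 10 genes each way furthest from CD8, and 3 on each side of the threshold. Other list members in the text were chosen after their values were seen. Members and lists were chosen with earlier results of these data known. A few genes that the rule takes are not reported here. Counting was tested on simulated data. Alternatives were 2 other floors, no floor, median centring, quantile normalization, 1.5-fold and 3-fold thresholds, leaving out shared probe sets, and averaging the probe sets of a gene. Python 3.11.15, numpy 2.4.6, pandas 2.3.3 and matplotlib 3.10.9 were used.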

Additional observations from a re-analysis of the deposited data

Results flagged for a closer look

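Some named genes differed by 2-fold or more in opposite directions in the 2 cell types. With 1 array per group, the difference between CD4 and CD8 was not tested. There were 10 such genes among the 507 named, and each was higher without Foxo1 in CD4 T cells but lower in CD8 T cells. Nudt21, which encodes a subunit of the mRNA cleavage factor, had a log2 difference of at least 3.02 in CD4 (a bound) and of -3.08 in CD8. Its intensity was 609 in Foxo1-deficient and 68.7 in wild-type CD4 T cells, and 107 in Foxo1-deficient and 906 in wild-type CD8 T cells. Another Nudt21 probe set had smaller log2 differences of 1.78 in CD4 and -2.33 in CD8. Ghitm (1.54 in CD4 and -1.98 in CD8), the zinc finger genes Zfp142 (1.54 and -1.63) and Zfp148 (1.23 and -1.99), and R3hdm1 (1.46 and -1.13) followed. The others were the cell cycle factor gene E2f5 (1.19 and -1.10), the exocyst gene Exoc6 (1.16 and -1.23), the adaptor gene Sh3kbp1 (1.15 and -1.32), the channel kinase gene Trpm7 (1.12 and -1.15) and Rlf (1.10 and -1.62). The values of Zfp142 and Exoc6 are bounds in both cell types, and that of Zfp148 is a bound in CD8.

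Counting also probe sets without a gene name, 23 of the 22498 measured in both cell types had this pattern and 1 had the reverse. Of 347 such probe sets higher by 2-fold or more in CD4, 105 were also higher by 2-fold or more in CD8, and 219 were under 2-fold there. The median intensities of the 23 were 332 in Foxo1-deficient and 120 in wild-type CD4 T cells, and 90.0 in Foxo1-deficient and 304 in wild-type CD8 T cells. Within each cell type, the low wild-type CD4 and low deficient CD8 values follow from how these probe sets were picked.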

How the results depend on the processing

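The counts of probe sets higher and lower by 2-fold or more depended mostly on the floor. With the 25th percentile (17.7) as the floor they were 1860 and 2284 of 36663, with the 75th (471) 85 and 94 of 11930, and with no floor or filter 4358 and 5589 of 45037. Thresholds of 1.5-fold and 3-fold gave 1588 and 1203, and 84 and 78. Higher calls made up 54.4% of the 2-fold calls, 60.1% after centring on array medians (400 and 266), 50.2% after quantile normalization (326 and 324), 47.5% with the higher floor, 44.9% with the lower one and 43.8% with none. Without shared probe sets the counts were 276 and 217. Of 146 genes taken by the naming rule or given in the text that differed by 2-fold or more, 5 came under it after centring (among them Dnajc15, Hba-a1, Igf1r and Klhl5), 5 after quantile normalization (Foxp3, Hba-a1, Hspa8, Rrm2 and Swap70) and 2 when probe sets were averaged (Igf1r and Inpp4b). With the higher floor 78 kept 2-fold and 40 were unmeasured. Of 220 such genes, 2-fold or not, 3 (Myo5a, Pik3cd and Zfp770) changed sign under quantile normalization. None did after centring, with the lower floor, with none or when probe sets were averaged, nor did any of the 144 still measured with the higher floor. No paired analysis was possible because each group is 1 array, and no array could be left out. Signal near the floor limits the dim genes, many of which have only a bound.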

Other observations

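Genes of nucleoside uptake and phosphorylation, put together after their values were seen, stood on both sides. Beside the transporter gene Slc28a2 (1773 in deficient, 7176 in wild-type cells, 4.05-fold lower), the deoxycytidine kinase gene Dck read 2441 in deficient and 7121 in wild-type cells (2.92-fold lower) and the adenosine kinase gene Adk 1743 in deficient and 4275 in wild-type cells (2.45-fold lower). The uridine-cytidine kinase gene Uck2 went the other way at 348 in deficient and 156 in wild-type cells (2.23-fold higher). In CD8 T cells the log2 differences were -1.26 (Slc28a2), -1.08 (Dck), -0.54 (Adk) and -0.57 (Uck2).

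Other signalling genes past 2-fold, also chosen after their values were seen, stood on both sides. Camk2b, a calcium-dependent kinase gene, read 5109 in deficient and 1733 in wild-type cells (2.95-fold higher). Ndrg1, which stress induces, read 2683 in deficient and 903 in wild-type cells (2.97-fold higher), and Gadd45g, a growth arrest gene, 349 in deficient and 114 in wild-type cells (3.08-fold higher). Stk11ip, which encodes a partner of the kinase LKB1, read 1077 in deficient and 373 in wild-type cells (2.89-fold higher). On the lower side, Epas1, the hypoxia factor HIF-2 alpha, read 425 in deficient and 1112 in wild-type cells (2.62-fold lower). Trat1, an adaptor of the T cell receptor, read 1495 in deficient and 3901 in wild-type cells (2.61-fold lower), and the stress kinase gene Map3k5 420.3 in deficient and 993 in wild-type cells (2.36-fold lower).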
